A study of Mus musculus with 12 samples.

Results

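Metallothioneins bind zinc inside the cell, and zinc transporters move it across membranes. Described here are 8 genes of these families in mouse liver after loss of YAP: *Mt1* and *Mt2*, the exporters *Slc30a1* and *Slc30a10*, and the importers *Slc39a4*, *Slc39a5*, *Slc39a8* and *Slc39a14*. They were chosen by name, with earlier results of these data known, and all 8 were found among the 41743 genes of both tables. In YAPKO livers 2 of the 7 tested members rose, *Mt2* and *Slc39a4*, where 36.6% of all tested genes changed. In YAPKO TAZHET livers 1 of 7 rose, *Slc39a4*, where 37.4% of all tested genes changed. No tested member fell in either model, and *Slc39a5*, which was near 1 TPM in WT livers, was below the filter of these tests. Its ratios of mean TPM to WT were 0.255 in YAPKO and 0.321 in YAPKO TAZHET livers. With no filter it was called lower in both models, as were 1986 of 16459 and 2082 of 16497 genes.

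The livers came from 12 female mice, 3 to 4 months old, in 4 groups of 3. YAPKO mice (C57BL/6 background) carried *Foxa3*-Cre and floxed alleles of *Yap1*. Their line also carried a floxed EYFP reporter at *ROSA*. YAPKO TAZHET mice (mixed C57BL/6-FVB background) carried *Foxa3*-Cre with both alleles of *Yap1* and 1 allele of *Wwtr1* deleted, the gene that encodes TAZ. Each model had its own WT female littermates, named WT (C57BL/6) and WT (mixed). *Foxa3*-Cre acts in the foregut endoderm of the embryo, so hepatocytes, bile duct cells and cells of other foregut organs are targeted, while blood and endothelial cells of the liver do not come from that layer. Values are TPM, which scale reads for gene length and library total and keep no record of depth, so the spread between mice is the only error available.

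Metallothioneins are small proteins rich in cysteine that hold zinc and copper, and liver makes them in large amounts. Their genes respond to zinc through the transcription factor MTF1, which binds metal response elements (MREs), and also to glucocorticoids and to inflammatory signals. The SLC39 (ZIP) proteins carry zinc into the cytoplasm and the SLC30 (ZnT) proteins carry it out, and some members of both families carry manganese or iron.

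The metallothionein genes lie side by side on chromosome 8 of GRCm38. *Mt2* (ENSMUSG00000031762) runs from 94172664 to 94173568 and *Mt1* (ENSMUSG00000031765) from 94179082 to 94180327, both on the plus strand with 5513 bases between them. Promoter windows from 250 bases before to 50 after an annotated start (RefSeq, GRCm38.p6) were given for 6 of the 8 members, in 8 windows. *Slc39a4* and *Slc39a14* had none. The RefSeq starts can differ from the gene starts above: the *Mt2* window ends at 94172667, and that gene is listed from 94172664. Shown here are the windows of both metallothioneins and of *Slc30a1*, the exporter whose gene is a textbook target of MTF1. Capitals mark each match to an MRE, spelled TGCGCNC or TGCACNC, on either strand. The windows lie at chr8:94178839-94179138, chr8:94172368-94172667 and chr1:191906531-191906830, all on the plus strand, and are written 5′ to 3′.
Mt1: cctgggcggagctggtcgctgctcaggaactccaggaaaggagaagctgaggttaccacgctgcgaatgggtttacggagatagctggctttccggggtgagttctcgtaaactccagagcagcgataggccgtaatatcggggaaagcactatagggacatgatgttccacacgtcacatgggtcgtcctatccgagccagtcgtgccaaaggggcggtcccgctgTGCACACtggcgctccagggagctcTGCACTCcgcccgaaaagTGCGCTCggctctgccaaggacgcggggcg
Mt2: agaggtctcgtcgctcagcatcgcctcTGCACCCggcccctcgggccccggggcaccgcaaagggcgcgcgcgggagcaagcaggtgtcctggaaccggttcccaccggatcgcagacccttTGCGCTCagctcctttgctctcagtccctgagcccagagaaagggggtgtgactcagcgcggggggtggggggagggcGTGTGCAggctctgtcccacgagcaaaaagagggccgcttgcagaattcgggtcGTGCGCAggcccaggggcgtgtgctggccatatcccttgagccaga
Slc30a1: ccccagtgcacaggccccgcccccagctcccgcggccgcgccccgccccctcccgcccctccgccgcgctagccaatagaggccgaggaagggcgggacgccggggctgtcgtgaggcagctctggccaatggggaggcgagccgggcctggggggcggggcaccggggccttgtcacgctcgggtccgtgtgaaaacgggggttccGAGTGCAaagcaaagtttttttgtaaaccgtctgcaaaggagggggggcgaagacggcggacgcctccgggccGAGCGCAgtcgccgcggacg

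The *Mt2* window held 4 MRE matches, that of *Mt1* 3 and that of *Slc30a1* 2. Of 32817 promoter windows of the same length, 0.518% held at least 4 matches, 1.97% at least 3 and 7.12% at least 2. The window of *Slc30a10* held 3 matches, of which those on opposite strands at -233 and -232 overlap. Of the paired windows of *Slc39a5* and of *Slc39a8*, 1 each held 1 match and the other 0. An antioxidant response element, spelled TGACNNNGC, was matched once in the *Mt2* window at -79, once in that of *Slc30a1*, 2 times in 1 window of *Slc39a5* and once in 1 window of *Slc39a8*, and at least once in 12.4% of all windows. The TEAD motif GGAATG, which YAP and TAZ partners bind, was found in 1 window of *Slc39a8* and in 14.7% of all windows. The STAT motif TTCNNNGAA was in none of the members' windows and in 8.29% of all. These are matches of letters, and whether any of them is bound was not measured.

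**Figure D1:**
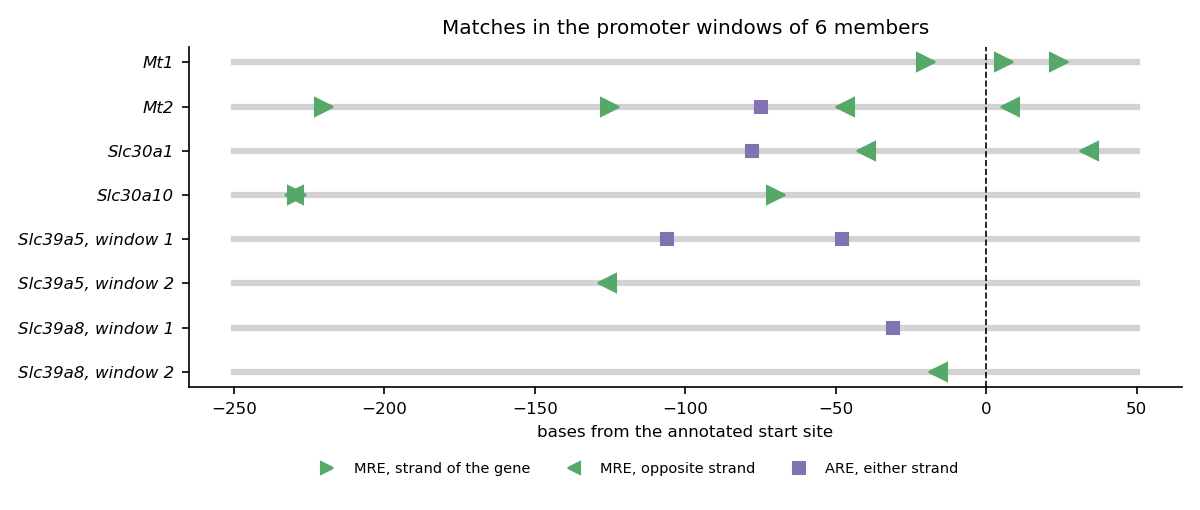
Matches to the metal response element (MRE, triangles pointing along the strand) and the antioxidant response element (ARE, squares) in the promoter windows of 6 members; the x axis is the distance in bases from the annotated start site (dashed line). The window of *Mt2* held 4 MRE matches and that of *Mt1* held 3, of which 2 lie after the RefSeq start used for the window.

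Of the genotypes in the labels, the loss of *Yap1* could be seen in the libraries. *Yap1* was at 28.2 to 33.2 TPM in the 6 WT livers, at 1.67 to 3.72 TPM in YAPKO and at 8.63 to 11.5 TPM in YAPKO TAZHET livers. *Wwtr1* was at 6.26 to 8.38 TPM in WT, at 13.3 to 16.7 TPM in YAPKO and at 11.5 to 14.1 TPM in YAPKO TAZHET livers, so the lost allele of the last group cannot be seen from its total level. Albumin was at 51588 to 83138 TPM in all 12 livers. Of the 7 hepatocyte markers tested, 4 were lower in YAPKO and 3 in YAPKO TAZHET livers, and 7 of 8 macrophage markers were higher in each. Among all tested genes, 17.2% and 17.5% were lower and 19.4% and 19.9% higher in the 2 models. In bulk tissue, fewer cells of a type and less RNA per cell cannot be told apart. Before testing, each library was scaled by a trimmed mean of its log ratios to the others. Without that scaling the median log2 fold change of all genes was 0.28 in YAPKO and 0.24 in YAPKO TAZHET livers in place of -0.02 and -0.02, so changes are relative to the bulk of genes.

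In WT livers the members spanned from 684 TPM down to 0.660 TPM. In WT (C57BL/6) livers the mean order was *Mt1* at 389 TPM, *Mt2* at 235, *Slc39a14* at 68.8, *Slc39a4* at 48.2, *Slc30a1* at 16.5, *Slc39a8* at 13.0, *Slc30a10* at 8.36 and *Slc39a5* at 1.20 TPM. *Mt1* overlapped *Mt2*, *Slc30a1* overlapped *Slc39a8*, and *Slc39a8* overlapped *Slc30a10* between mice, while the other neighbours in that order stood apart. The WT (mixed) livers had the same order, with an overlap only between *Mt1* and *Mt2*. In both knockout groups *Mt2* stood above *Mt1* in the mean and *Slc39a4* above *Slc39a14*. Of the 7 members tested between the WT groups, limma called 0 at an adjusted p under 0.05 (background 0.216% of 11126 genes) and 0 at an unadjusted p under 0.05.

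WT (C57BL/6) livers held 509, 115 and 80.7 TPM of *Mt2*, and YAPKO livers held 876, 1542 and 946 TPM. Every YAPKO liver was above every WT littermate, and the WT mouse LM75 stood well above the other WT mice. The log2 fold change was 2.34 (standard error 0.63, 95% interval 0.89 to 3.80, limma adjusted p = 0.0215), and the ratio of mean TPM was 4.77 (two-sided exact permutation test, p = 0.1, the smallest that 3 mice against 3 allow). Leaving out LM75 gave 3.17 (limma adjusted p = 0.000363). The call was lost without YAPKO mouse LM189 (2.09, limma adjusted p = 0.0688), without WT mouse LM192 (2.05, adjusted p = 0.0719), without WT mouse LM193 (1.81, adjusted p = 0.0662) and with robust variance shrinkage (2.34, adjusted p = 0.0724). The direction held in all 14 alternative fits.

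For *Mt1*, WT (C57BL/6) livers held 614, 365 and 187 TPM and YAPKO livers 575, 1065 and 794 TPM. WT mouse LM75 was above YAPKO mouse LM74, so the groups overlapped. The change of 0.83 on the log2 scale (standard error 0.43, 95% interval -0.16 to 1.83, limma adjusted p = 0.166) did not pass, and it passed without LM75 (1.27, adjusted p = 0.0307) and with no scaling (1.18, adjusted p = 0.0417).

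In the mixed set neither metallothionein passed. WT (mixed) livers held 617, 351 and 171 TPM of *Mt2*, and YAPKO TAZHET livers held 944, 291 and 503 TPM. Of *Mt1*, WT (mixed) livers held 579, 684 and 361 TPM and YAPKO TAZHET livers 761, 232 and 441 TPM. The groups overlapped for both genes, and the highest YAPKO TAZHET mouse was LM225 for both. The log2 fold change of *Mt2* was 0.34 (95% interval -0.77 to 1.44, limma adjusted p = 0.619) and that of *Mt1* was -0.59 (95% interval -1.47 to 0.30, limma adjusted p = 0.264). Without LM225 the values were -0.03 for *Mt2* and -0.93 for *Mt1* (limma adjusted p = 0.97 and 0.0612).

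The difference between the models, the change in YAPKO minus that in YAPKO TAZHET livers, was 2.01 for *Mt2* (95% interval 0.03 to 3.98, unadjusted p = 0.0471, limma adjusted p = 0.999) and 1.42 for *Mt1* (95% interval -0.01 to 2.85, unadjusted p = 0.0513, limma adjusted p = 0.999). Among the 7 members tested, 0 passed the adjusted threshold for this difference (background 0.0576% of 12159 genes at that threshold). At an unadjusted limma p under 0.05 there was 1, *Mt2*, and the share of all genes at this looser threshold is not given here. The rise of *Mt2* in YAPKO livers is therefore not shown to differ from its change in YAPKO TAZHET livers. Background, TAZ dose and the remaining *Yap1* level differ together between the models, so their parts cannot be told apart.

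The metallothionein genes varied together from mouse to mouse. After each group's mean was taken away, Pearson's r between their log2 levels was 0.876 (n = 12, permutation p = 0.00024), and Spearman's rho was 0.895 (permutation p = 0.00023). With Benjamini-Hochberg adjustment for the 7 relations computed, the permutation p of r was 0.00168. Without the mice farthest from the median of *Mt1*, LM75 and LM193, r was 0.806, and it was 0.909 in the C57BL/6 set and 0.834 in the mixed set. Their longest annotated transcripts matched at 79.2% identity over 192 bases of *Mt2*, too little to count as near-identical copies. *Gm45774*, antisense to *Mt2*, shares sequence with it and is listed at 0 in every library.

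Within each library the balance of the metallothioneins can be read without any scaling, as the ratio of *Mt2* to *Mt1* TPM. It was 0.829, 0.314 and 0.432 in WT (C57BL/6) and 1.52, 1.45 and 1.19 in YAPKO livers. WT (mixed) livers had ratios of 1.07, 0.514 and 0.474, beside 1.24, 1.25 and 1.14 in YAPKO TAZHET livers. All 6 knockout livers held more *Mt2* than *Mt1* TPM, 5 of the 6 WT livers held less, and no knockout liver overlapped its own WT group (p = 0.1 for each set by the two-sided exact permutation test). The ratio was examined after the values were seen.

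**Figure D2:**
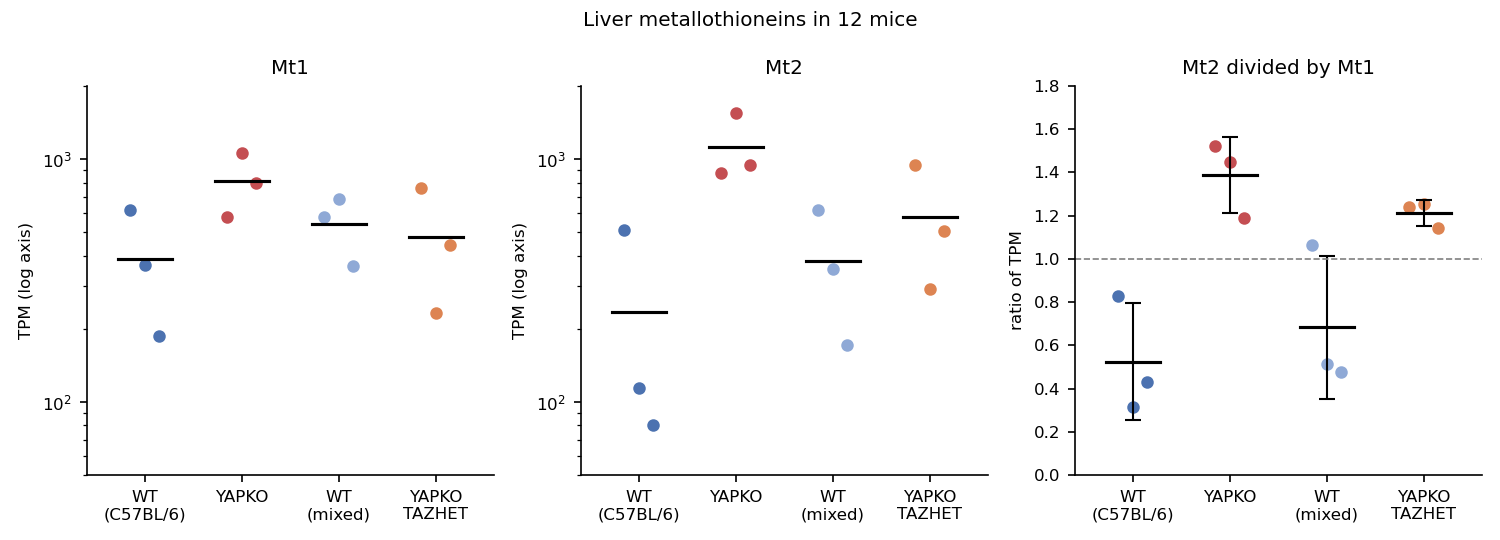
TPM of *Mt1* and *Mt2* on log axes and the ratio of their TPM, with 1 point for each mouse in 4 groups of 3; the line is the mean and the bars in the third panel are the SD. *Mt2* of the 3 YAPKO livers sits between 876 and 1542 TPM, above all 3 WT (C57BL/6) livers, and the ratio is above 1 in all 6 knockout livers.

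Genes that respond to stress and inflammation moved in the same livers. Summed TPM of 13 immediate-early genes was 565, 4319 and 2125 in YAPKO mice LM74, LM189 and LM191, and 171 to 206 in their WT littermates. It was 350 to 492 in YAPKO TAZHET and 153 to 257 in WT (mixed) livers. Of the 13, 11 were higher in YAPKO livers, and 8 of the 12 tested were higher in YAPKO TAZHET livers. Among all tested genes 19.4% and 19.9% were higher. LM189 had both the highest immediate-early sum and the highest *Mt1* and *Mt2*. Within groups, r with the immediate-early genes' mean was 0.385 for *Mt1* and 0.230 for *Mt2* (n = 12, permutation p = 0.219 and 0.482). Without LM74 and LM189 these values of r were 0.0798 and -0.0313.

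Of 15 acute-phase genes, 9 were higher and 2 lower in YAPKO livers, and 8 were higher and 0 lower in YAPKO TAZHET livers. Among all tested genes, 19.4% were higher and 17.2% lower in YAPKO livers, and 19.9% and 17.5% in YAPKO TAZHET livers. The log2 fold change of *Lcn2*, a siderophore-binding protein, was 5.48 and 6.21 in the models, and that of *Saa1*, serum amyloid A, was 2.67 and 2.73 (limma adjusted p at most 0.00365). Of 8 glucocorticoid-responsive genes, 2 were higher (*Sgk1* and *Zbtb16*) and 1 lower (*Tsc22d3*) in YAPKO livers, and 0 were higher and 2 lower (*Tsc22d3* and *Tat*) in YAPKO TAZHET livers. As 36.6% and 37.4% of all tested genes were called in either direction, these counts do not set the 8 genes apart. At an unadjusted limma p under 0.05, 2 of the 8 were higher and 1 lower in YAPKO livers. In YAPKO TAZHET livers 1 was higher and 3 lower, and the share of all genes at this looser threshold is not given here. Within groups, *Mt1* correlated with the glucocorticoid genes' mean at r = 0.56 (n = 12, permutation p = 0.0517, adjusted p = 0.181), with rho = 0.629 (permutation p = 0.0321), r = 0.529 without LM74 and LM189, and r = 0.573 and 0.772 in the C57BL/6 and mixed sets. The other 5 relations of *Mt1* or *Mt2* with the 3 gene lists had permutation p-values adjusted to 0.383 or above. The part of these genes in the metallothionein values was not tested.

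*Slc39a4* encodes ZIP4, a zinc importer of the plasma membrane best known from the absorbing cells of the intestine. The gene (ENSMUSG00000063354) has up to 12 exons and lies on the minus strand of chromosome 15 from 76612383 to 76617384. WT (C57BL/6) livers held 37.1, 49.8 and 57.8 TPM and YAPKO livers 118, 130 and 147 TPM. WT (mixed) livers held 46.6, 43.4 and 40.2 TPM and YAPKO TAZHET livers 91.4, 137 and 153 TPM. All 6 knockout livers were above all 6 WT livers, and the lowest of the knockout values was LM225's.

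The log2 fold change of *Slc39a4* was 1.11 in YAPKO livers (standard error 0.17, 95% interval 0.72 to 1.504, limma adjusted p = 0.00175) and 1.21 in YAPKO TAZHET livers (standard error 0.21, 95% interval 0.73 to 1.69, limma adjusted p = 0.00275). The ratios of mean TPM were 2.74 and 2.93 (two-sided exact permutation test, p = 0.1 each). The difference between the models was -0.10 with a 95% interval of -0.74 to 0.55. The rise passed in 14 of 14 alternative fits in YAPKO livers, with log2 fold changes from 0.96 to 1.45, and in 13 of 13 in YAPKO TAZHET livers, from 1.05 to 1.5.

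Of 8 marker genes of intestinal absorbing cells, 1 was high enough to test, *Fabp2*, a fatty acid-binding protein. It was at 80.4 to 104 TPM in WT and 23.7 to 34.6 TPM in knockout livers and was lower in both models. *Sis*, *Lct* and *Cdx2* reached at most 0.356 TPM, and *Alpi* reached 2.27 TPM in 1 WT liver and was at 0 in all 6 knockout livers. The remaining 3 were below the filter, with higher means in each knockout group than in its WT group. *Cdh17* was at 0 to 0.474 TPM in WT and 0.171 to 0.682 TPM in knockout livers. For *Muc13* the ranges were 0 to 0.593 and 0.236 to 1.76 TPM, and for *Vil1* 0.0736 to 1.10 and 0.376 to 1.003 TPM. The part of these genes in the *Slc39a4* values was not tested.

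*Slc39a14* encodes ZIP14, which imports zinc, manganese and iron not bound to transferrin and is known to respond to interleukin-6 in the acute phase. The gene (ENSMUSG00000022094) lies on the minus strand of chromosome 14 from 70303469 to 70351425. WT (C57BL/6) livers held 62.7, 71.0 and 72.7 TPM and YAPKO livers 61.6, 84.8 and 75.7 TPM. WT (mixed) livers held 82.2, 73.1 and 67.0 TPM and YAPKO TAZHET livers 132, 53.9 and 56.3 TPM. Within the last group LM225 lay above all WT (mixed) livers and the other 2 mice below them.

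On the scaled values the log2 fold change of *Slc39a14* was -0.24 in YAPKO livers (95% interval -0.60 to 0.12, limma adjusted p = 0.258) and -0.29 in YAPKO TAZHET livers (95% interval -0.93 to 0.34, adjusted p = 0.444), and with no scaling it was 0.10 and -0.0005. Without LM225 the value in YAPKO TAZHET livers was -0.64 (limma adjusted p = 0.00331), which passed the threshold. *Slc39a4* was below *Slc39a14* in TPM in all 6 WT livers and above it in 5 of the 6 knockout livers, LM225 being the exception. The ratio of *Slc39a4* to *Slc39a14* TPM was 0.591, 0.700 and 0.795 in WT (C57BL/6) and 1.92, 1.54 and 1.94 in YAPKO livers. It was 0.567, 0.594 and 0.601 in WT (mixed) and 0.692, 2.55 and 2.72 in YAPKO TAZHET livers.

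*Slc39a8* encodes ZIP8, which takes manganese back from bile and is the closest relative of ZIP14 in the family. The gene (ENSMUSG00000053897) lies on the plus strand of chromosome 3 from 135825279 to 135888572. It was at 9.75 to 18.3 TPM in all 12 livers, and the groups overlapped in both sets. The scaled log2 levels differed by -0.30 in YAPKO (95% interval -0.84 to 0.24) and -0.24 in YAPKO TAZHET livers (95% interval -0.51 to 0.03), with limma adjusted p = 0.35 and 0.149. With no scaling the values turned to 0.02 and 0.03.

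*Slc39a5* encodes ZIP5, a zinc importer of the basolateral membrane of pancreatic acinar and intestinal cells. WT (C57BL/6) livers held 1.22, 1.48 and 0.896 TPM and YAPKO livers 0.177, 0.342 and 0.396 TPM. WT (mixed) livers held 0.660, 0.978 and 0.773 TPM and YAPKO TAZHET livers 0.307, 0.111 and 0.356 TPM. All 6 knockout livers were below all 6 WT livers, with ratios of mean TPM of 0.255 and 0.321 (two-sided exact permutation test, p = 0.1 each). Because it did not reach 1 TPM in 3 libraries, it entered no fit with the filter. With no filter the log2 fold change, which understates change at this level, was -0.88 (limma adjusted p = 0.00381) and -0.63 (limma adjusted p = 0.0078). In those fits 1986 of 16459 genes in YAPKO and 2082 of 16497 in YAPKO TAZHET livers were called lower. How many of all genes stood apart on TPM in the lower direction was not counted.

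The gene (ENSMUSG00000039878) lies on the minus strand of chromosome 10 from 128395931 to 128401229, wholly within the span of *Ankrd52* on the other strand, over 5299 bases. *Ankrd52* was at 6.65 to 11.1 TPM in WT and at 9.18 to 15.1 TPM in knockout livers, and whether the counting used strand is not given in the sources used here. Summed TPM of 8 pancreatic acinar genes was 81.7 in WT mouse LM192, 41.6 in WT mouse LM75, 110 in YAPKO mouse LM189, 38.8 in YAPKO mouse LM191 and 10.2 to 22.3 in the other 8 livers. In LM75 the sum was nearly all *Cela1*, at 39.8 TPM, and 6 of the 8 genes were at 0, against 0 of 8 in LM192 and LM189 and 1 of 8 in LM191. LM189, with the highest acinar sum, had 0.342 TPM of *Slc39a5*, below every WT liver. WT mouse LM192, with the next highest sum, had 1.48 TPM, the highest of all livers. The YAPKO mice LM189 and LM191, at 0.342 and 0.396 TPM, were above LM74 at 0.177 TPM, whose acinar sum was 15.9. The part of acinar genes in the *Slc39a5* values was not tested.

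Neither exporter passed the test in either model. *Slc30a1* encodes ZnT1, which carries zinc out across the plasma membrane, and the gene (ENSMUSG00000037434) lies on the plus strand of chromosome 1 from 191906767 to 191913247. WT (C57BL/6) livers held 16.8, 14.5 and 18.2 TPM and YAPKO livers 24.5, 16.9 and 26.3 TPM. WT (mixed) livers held 26.4, 16.6 and 17.4 TPM and YAPKO TAZHET livers 29.9, 22.9 and 24.7 TPM. The groups overlapped in both sets. On the scaled log2 values the change was 0.08 in YAPKO (95% interval -0.31 to 0.47, limma adjusted p = 0.73) and 0.09 in YAPKO TAZHET livers (95% interval -0.27 to 0.44, adjusted p = 0.701).

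*Slc30a10* encodes ZnT10, which exports manganese from hepatocytes into bile, and the gene (ENSMUSG00000026614) lies on the same strand and chromosome from 185454848 to 185468762. WT (C57BL/6) livers held 7.96, 4.84 and 12.3 TPM and YAPKO livers 14.6, 13.6 and 10.3 TPM. WT (mixed) livers held 11.2, 5.71 and 8.80 TPM and YAPKO TAZHET livers 7.36, 13.9 and 13.0 TPM. Again the groups overlapped in both sets. Its change on the log2 scale was 0.32 in YAPKO (95% interval -0.34 to 0.97, limma adjusted p = 0.415) and 0.11 in YAPKO TAZHET livers (95% interval -0.53 to 0.76, adjusted p = 0.784).

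**Figure D3:**
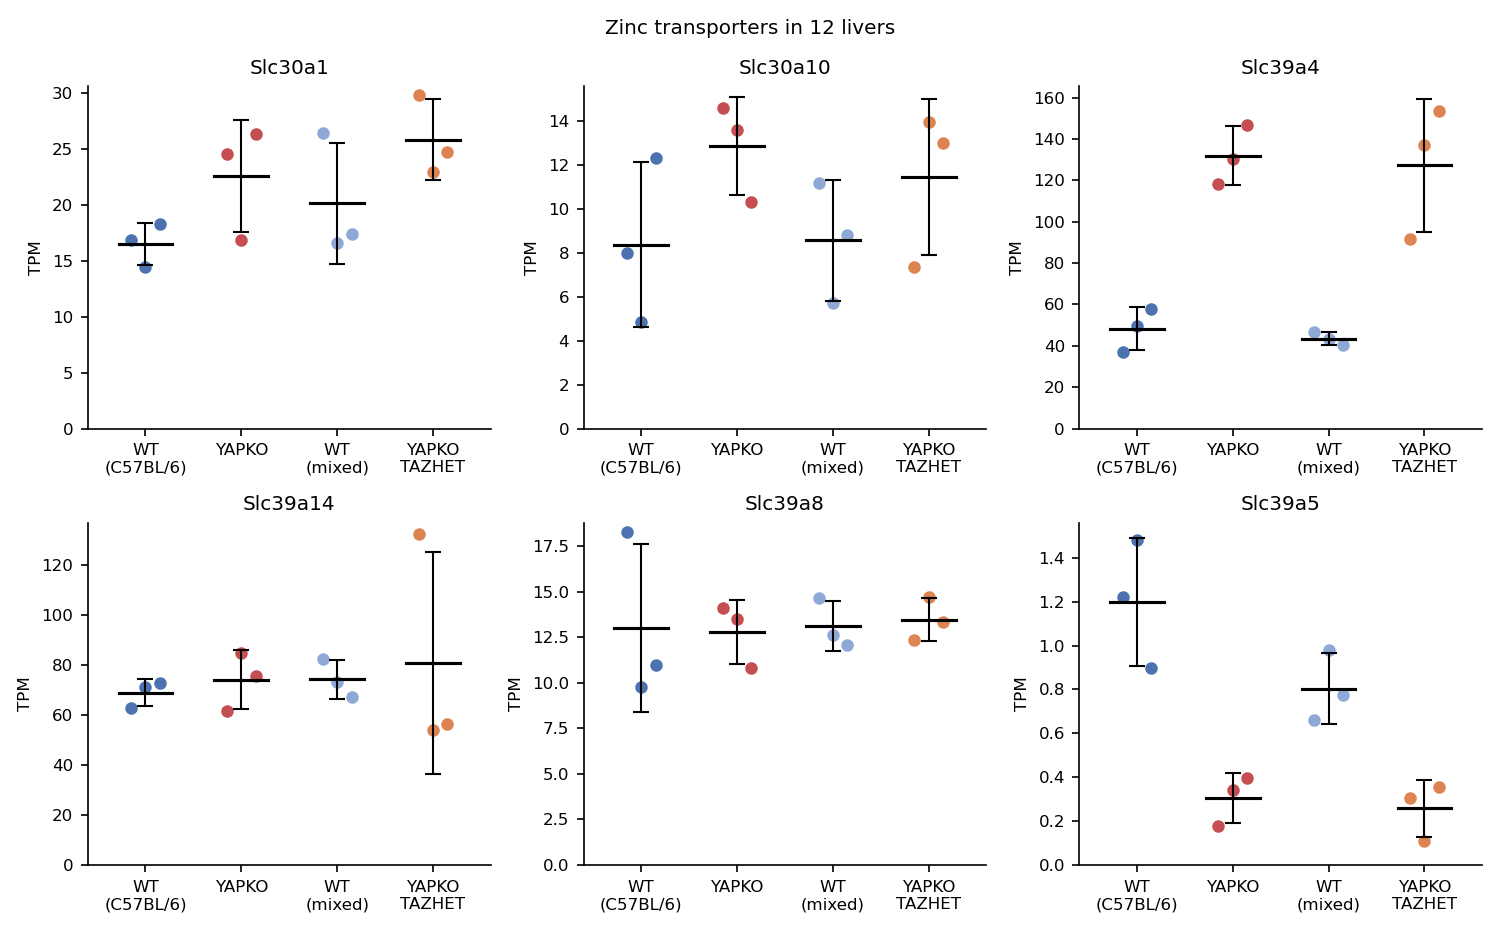
TPM of the 6 transporters, with 1 point for each mouse in 4 groups of 3, the mean as a line and the SD as bars. *Slc39a4* is higher and *Slc39a5* lower in all 6 knockout livers than in all 6 WT livers, and the groups of the other genes overlap.

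Of the 7 members tested, 2 rose and 0 fell in YAPKO livers, where limma called 36.6% of 11704 genes (19.4% higher and 17.2% lower). In YAPKO TAZHET livers 1 of 7 rose and 0 fell, where 37.4% of 11741 genes were called (19.9% higher and 17.5% lower). No tested member had an unadjusted p under 0.05 in the lower direction in either model (0 of 7 in each). With 7 genes, these counts are not read as setting the members apart from all genes. The median log2 fold change over the tested members was 0.32 and 0.09, beside -0.02 and -0.02 over all genes. On TPM, 2 of the 7 did not overlap their WT group in YAPKO and 1 of 7 in YAPKO TAZHET livers, both in the higher direction, beside 47.5% and 44.4% of all tested genes in that direction.

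**Figure D4:**
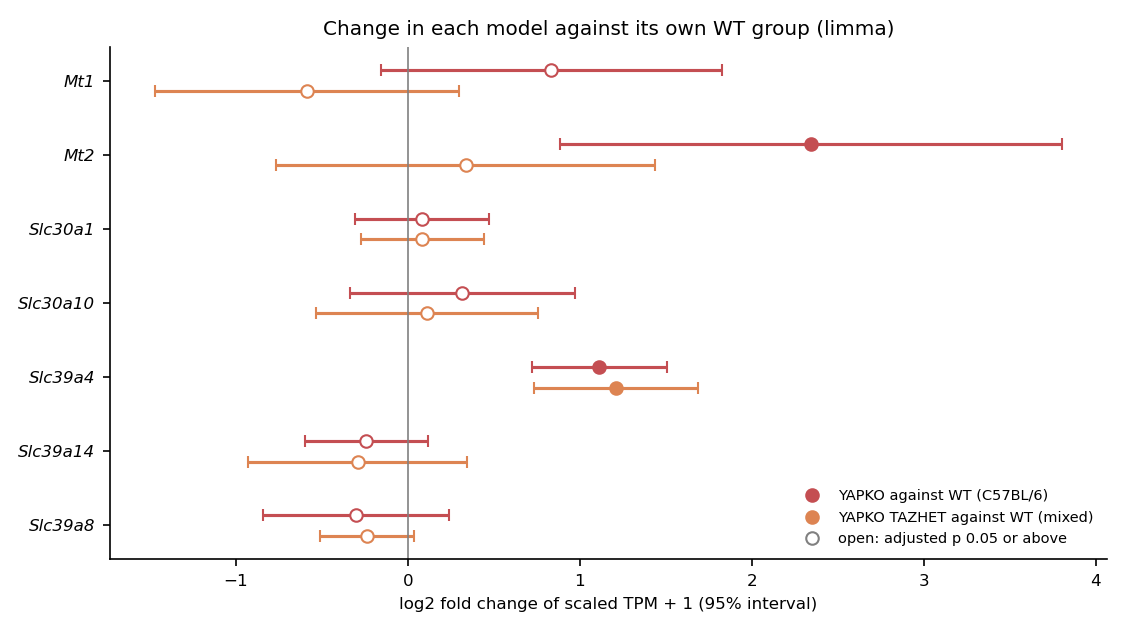
Log2 fold change of the 7 tested members in each model against its own WT group, with 95% intervals from limma on log2(scaled TPM + 1); filled points have an adjusted p under 0.05. *Slc39a4* passed in both models, at 1.11 and 1.21, and *Mt2* in YAPKO livers at 2.34.

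Other importers of the *Slc39* family were also measured. Of 14 *Slc39* genes, 11 were tested, and 3 were higher and 0 lower in each model, beside 19.4% and 19.9% of all tested genes higher and 17.2% and 17.5% lower. Besides *Slc39a4* these were *Slc39a1*, which encodes the plasma membrane importer ZIP1, and *Slc39a11*, which encodes ZIP11. *Slc39a11* went from 12.02 ± 0.934 to 28.9 ± 2.74 TPM in YAPKO livers (SD, n = 3) and from 13.8 ± 1.90 to 31.1 ± 3.88 TPM in YAPKO TAZHET livers. Its log2 fold changes were 0.87 and 0.84 (limma adjusted p = 0.00091 and 0.00253).

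*Slc39a1* went from 55.3 ± 4.77 to 92.8 ± 14.96 TPM and from 56.5 ± 5.96 to 93.7 ± 4.86 TPM (SD, n = 3), with log2 fold changes of 0.39 and 0.43 (limma adjusted p = 0.0338 and 0.00777). In YAPKO livers its call held in 10 of 14 alternatives, with limma adjusted p up to 0.117 without WT mouse LM193. With no scaling, 6 of 11 *Slc39* genes were higher in each model, adding *Slc39a6*, *Slc39a10* and *Slc39a13*, beside 4390 of 11704 and 4089 of 11741 of all tested genes higher.

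Of 10 *Slc30* genes, 7 were tested and 0 were called in either model by limma, beside 36.6% and 37.4% of all tested genes. The share of all genes at an unadjusted p under 0.05 is not given here. At that threshold 1 of the 7 was higher in YAPKO livers and 0 in YAPKO TAZHET livers. That gene was *Slc30a4*, which encodes ZnT4, a carrier of zinc into vesicles, with log2 fold changes of 0.37 and 0.27 (adjusted p = 0.054 and 0.131). With no scaling, *Slc30a4* passed in both models and *Slc30a9* in YAPKO livers. Over all tested genes, 4390 of 11704 and 4089 of 11741 were then higher in the 2 models. The median log2 fold change of the tested genes, with scaling, was 0.05 and 0.07 for *Slc30* in YAPKO and YAPKO TAZHET livers. For *Slc39* it was 0.26 and 0.15, and over all tested genes it was -0.02 and -0.02.

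*Mt3* and *Mt4*, the metallothioneins of brain and of stratified epithelia, were listed at 0 in every liver apart from 0.124 TPM of *Mt3* in 1 YAPKO TAZHET liver. Of the zinc-sensing list, *Mtf1* itself had log2 fold changes of -0.10 and -0.27, and its targets *Selenoh* and *Gclc* had 0.22 and 0.42 in YAPKO and -0.03 and 0.09 in YAPKO TAZHET livers. Of these 3 genes limma called 0 in each model, beside 36.6% and 37.4% of all tested genes called. At an unadjusted p under 0.05 there were also 0, and the share of all genes at that threshold is not given here. These counts of 3 genes are not read as a result about the list.

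Copper and manganese genes were examined because metallothioneins also bind copper and several ZIP and ZnT proteins carry manganese. Of 12 copper genes, 2 were higher and 3 lower in YAPKO livers and 3 were higher and 2 lower in YAPKO TAZHET livers, where 36.6% and 37.4% of all tested genes were called in either direction. *Cp*, which encodes ceruloplasmin, the copper-carrying oxidase of plasma and an acute-phase protein, went from 255 ± 6.56 to 992 ± 102 TPM and from 271 ± 21.1 to 980 ± 45.8 TPM (SD, n = 3). Its log2 fold changes were 1.61 and 1.56 (limma adjusted p = 2.64e-05 and 4.44e-05).

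*Atox1*, the chaperone that hands copper to the secretory pumps, was higher at 0.52 and 0.64 (limma adjusted p = 0.0206 and 0.017), and in each model the call was lost in some of the alternatives (11 of 14 and 11 of 13 passed, with adjusted p up to 0.0752 without WT mouse LM192 and 0.0569 without WT mouse LM227). The copper importer *Slc31a1* was lower at -0.76 and -0.57 (limma adjusted p = 0.000559 and 0.00174). *Sod1*, the copper and zinc superoxide dismutase, was lower at -0.82 and -0.75 (limma adjusted p = 0.00127 and 0.00449). *Ccs*, the chaperone that loads it, was lower in YAPKO livers at -0.50 (limma adjusted p = 0.00519) and had -0.27 in YAPKO TAZHET livers (adjusted p = 0.114). *Cox17*, a mitochondrial copper chaperone, had 0.01 in YAPKO and was higher in YAPKO TAZHET livers at 0.51 (limma adjusted p = 0.0287, past the threshold in 8 of 13 alternatives and up to 0.0908 without LM250). The difference between the models was -0.23 for *Ccs* and -0.50 for *Cox17* (limma adjusted p = 0.999 and 0.971), so neither is shown to differ. With no scaling *Ccs* had -0.16 in YAPKO livers and no longer passed (limma adjusted p = 0.147).

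Of 6 manganese genes, 1 was higher and 1 lower in each model, close to the 36.6% and 37.4% of all tested genes called. *Slc11a2*, which encodes DMT1, an importer of iron and manganese, rose from 7.67 ± 0.706 to 17.7 ± 1.99 TPM in YAPKO and from 7.35 ± 0.809 to 22.8 ± 4.69 TPM in YAPKO TAZHET livers (SD, n = 3). Its log2 fold changes were 0.79 and 1.22 (limma adjusted p = 0.000977 and 0.00166). *Sod2*, the manganese superoxide dismutase of mitochondria, fell from 47.0 ± 4.62 to 34.5 ± 1.66 TPM in YAPKO and from 48.7 ± 4.67 to 33.2 ± 1.53 TPM in YAPKO TAZHET livers (SD, n = 3), with log2 fold changes of -0.76 and -0.83 (limma adjusted p = 0.00154 and 0.000731).

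**Figure D5:**
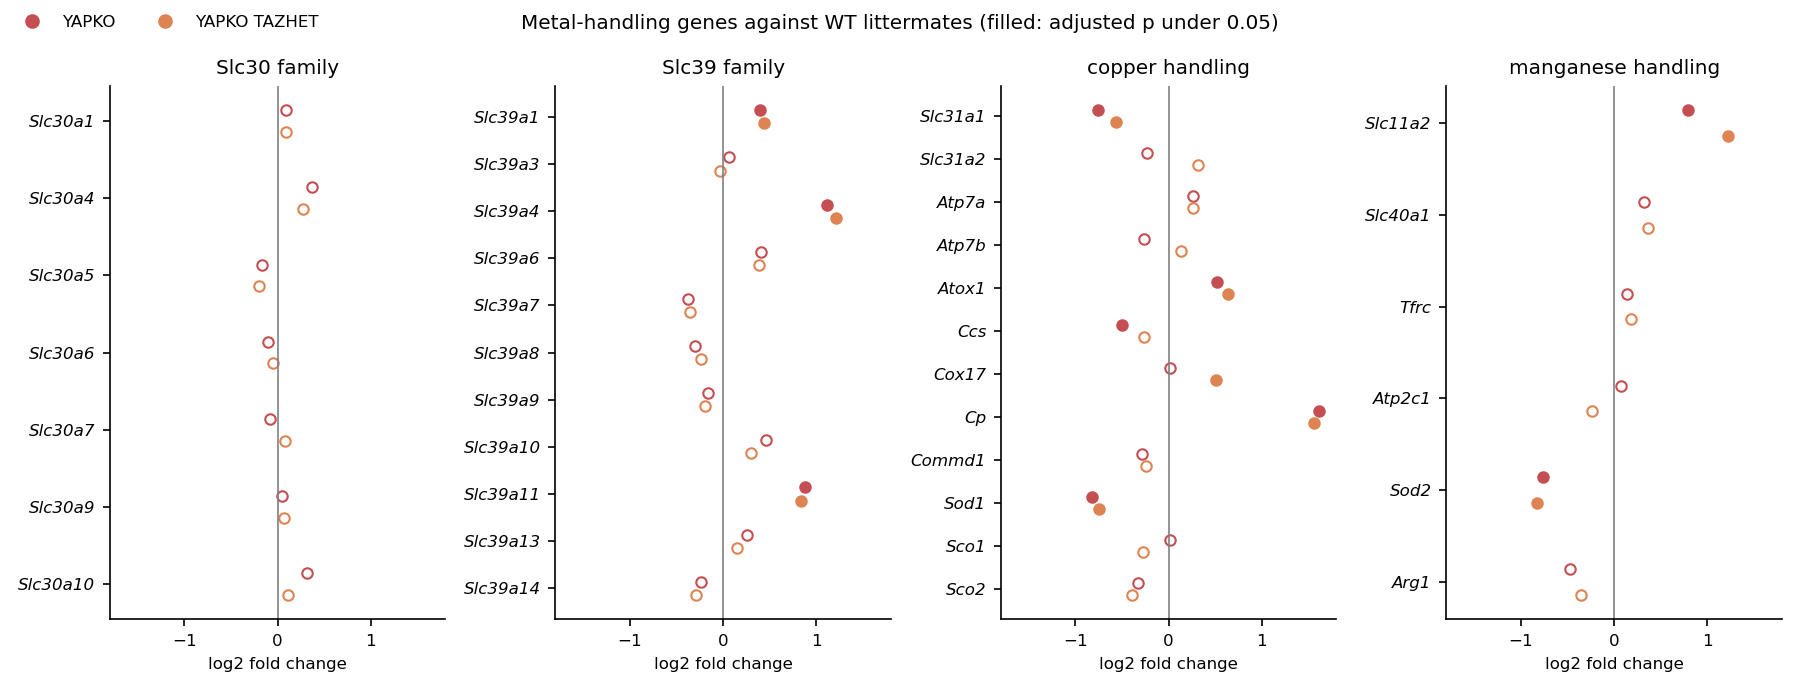
Log2 fold change, on log2(scaled TPM + 1), of the tested genes of 4 metal-handling lists in YAPKO (red) and YAPKO TAZHET livers (orange), each against its own WT group; filled points have a limma adjusted p under 0.05. In the Slc39 panel 3 genes are filled on the higher side in both models, and in the Slc30 panel none is. Of all tested genes, 36.6% in YAPKO and 37.4% in YAPKO TAZHET livers passed that threshold in either direction.

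Across the 12 libraries, with the group differences left in, genes whose log2 levels followed each member closely among 12158 genes were as follows. *Slc39a4* was followed by *Grhl1*, a grainyhead-like transcription factor, at r = 0.976 and by *Tprn* at r = 0.970. *Grhl1* was at 0.0888 to 0.438 TPM in WT and at 1.39 to 2.58 TPM in knockout livers. *Mt2* was followed by *Map4k5*, a kinase, at r = 0.923, by *Mcl1*, which protects cells from apoptosis, at r = 0.913 and by *Ugt1a6a*, a glucuronosyltransferase, at r = 0.911.

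*Mt1* was followed by *Lyplal1* at r = 0.875, *Map4k5* at 0.833 and *Ppih* at 0.833. *Slc39a14* was followed by *Brf1* at 0.901, *Arhgap5* at 0.894 and *Arhgef26* at 0.891. For *Slc39a8* these were *Ube2h* at 0.886, *Maml1* at 0.874 and *Osgep* at 0.872, and for *Slc30a1* they were *Gpr107* at 0.882, *P2ry2* at 0.870 and *Mtfmt* at 0.830. *Slc30a10* was followed by *Nars* and *Tars*, which encode cytosolic aminoacyl-tRNA synthetases, at 0.868 and 0.857, and by *Tnk2* at 0.863. All points share the same libraries and scaling, and a gene that differs between knockout and WT livers correlates with any other that does.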

How the data were processed

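Total RNA of 12 frozen female livers was sequenced by Illumina; strand use in the libraries and counting is not given in the sources used here. The authors used CLC Genomics Workbench, with GRCm38.p6 as the genome, and deposited TPM of 41743 genes for each mouse. Per the labels, edgeR was used in the authors' own comparisons, which are deposited as fold changes and p-values and were not used. TPM keeps no read counts, so no count test could be run. All TPM columns belonged to samples of the series.

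Each library was scaled by an unweighted trimmed mean of log ratios, with 30% of ratios and 5% of levels cut off at both ends, and log2(scaled TPM + 1) was used. The tests used limma 3.58.1 in R 4.3.3 (eBayes with a trend) on genes that reached 1 TPM in 3 or more of the libraries fitted, adjusted over all genes by Benjamini-Hochberg with a threshold of 0.05. A model's fit held its own 6 libraries, that of the WT groups their 6, and that of the difference between the models all 12. The fits were tested on simulated data and repeated with a pseudocount of 0.1, no filter, a minimum of 5 TPM, no or quantile scaling, robust shrinkage, all libraries together and each mouse left out. Single genes were compared by exact two-sided permutation tests, and relations across mice by 100000 resamples (scipy 1.17.1). Loci matched GENCODE M21, and near-identical copies were sought with blastn 2.17.0. The limma p-values set the difference between groups against the spread of the 3 mice within each group, shrunk toward a trend over all genes. Depth is unknown.

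The members and gene lists were chosen with earlier results of these data known. The text names the 8 members, other metal genes past the threshold in either model, up to 4 genes of any other list, and the 3 genes most correlated with each member, apart from 1 gene that is not reported here. Genes named outside that rule (*Fabp2*, *Sis*, *Lct*, *Cdx2*, *Alpi*, *Ankrd52*, *Slc30a4* and the genes added by no scaling among them) were named after their values were seen.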

Additional observations from a re-analysis of the deposited data

How the results depend on the processing

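*Slc39a4* passed in every alternative fit of both models, and a term for the animal numbers (LM74 and LM75 against the rest) changed no member's call in YAPKO livers, with 4584 calls over all genes in place of 4279. No paired analysis was possible because the labels do not give the litter of each mouse. In YAPKO livers 2 members were called higher, 1 with robust shrinkage, and 1 to 3 with each mouse left out. With no filter 1 member, *Slc39a5*, was called lower in each model in place of 0, because the filter had kept it out. Over all genes, 1986 of 16459 and 2082 of 16497 were called lower with no filter. With each mouse left out, 0 to 1 members were called lower in YAPKO TAZHET livers, the 1 being *Slc39a14* without LM225. With no scaling, the split of higher to lower calls over all genes was 4390 to 834 in place of 2268 to 2011 in YAPKO and 4089 to 886 in place of 2336 to 2057 in YAPKO TAZHET livers. With no scaling the log2 fold change turned to 0.0176 for *Slc39a8* and 0.10 for *Slc39a14* in YAPKO livers, 0.0346 for *Slc39a8* in YAPKO TAZHET livers and 0.0554 for *Slc39a8* between the WT groups. The difference between the models for *Slc30a1* turned to 0.0435 with no scaling and 0.0026 with no filter.

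With each mouse left out, uncalled log2 fold changes that crossed 0 ran from -0.0255 to 0.27 for *Slc30a1* and -0.0084 to 0.61 for *Slc30a10* in YAPKO livers, and in YAPKO TAZHET livers from -0.12 to 0.77 for *Mt2*, -0.0254 to 0.25 for *Slc30a1* and -0.12 to 0.43 for *Slc30a10*. In the difference between the models they ran from -0.17 to 0.16 for *Slc30a1*, -0.12 to 0.50 for *Slc30a10*, -0.36 to 0.0841 for *Slc39a4*, -0.25 to 0.22 for *Slc39a8* and -0.16 to 0.42 for *Slc39a14*. Between the WT groups they ran from -0.31 to 0.30 for *Slc30a10*, -0.19 to 0.27 for *Slc39a8* and -0.0023 to 0.0828 for *Slc39a14*. The relation with acute-phase genes turned to -0.457 for *Mt1* and -0.507 for *Mt2* in the C57BL/6 set and to -0.0311 and -0.0604 without the 2 farthest mice. That with immediate-early genes turned to -0.0301 for *Mt1* and -0.32 for *Mt2* in the mixed set, and to -0.0313 for *Mt2* without the 2 farthest mice. The cause of these turns was not tested. The number of mice, 3 a group, limits the width of every interval.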
